A study of Xenopus laevis with 30 samples.

Results

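Left and right half-embryos of the frog Xenopus laevis were compared with dorsal half-embryos at stage 12, the late gastrula, in 9 of the 30 libraries of a study of twin embryos. The 6 left and right libraries, 3 of each, came from a cut along the midline, which gives every half-embryo part of the dorsal organizer and part of the ventral side. The 3 dorsal libraries came from a cut that separates the dorsal side from the ventral side. Embryos of the Nasco strain were cut at stage 8, the blastula, in Barth's solution, and all half-embryos were cultured in a dilution of that solution, so left, right and dorsal half-embryos shared cutting and medium. The 3 ventral half-embryo libraries (same cut as dorsal) and the 3 whole-embryo libraries (uncut, in Marc's Modified Ringers) of stage 12 entered the same fit, and their levels are given beside those of the 9 libraries. The labels do not say how many embryos went into a library or whether the replicate numbers stand for clutches. The p-values therefore refer to the scatter among these libraries, part of which may be technical. Poly(A) RNA was sequenced without strand information and deposited as RPKM (read counts scaled to gene length and library size) for 15596 genes. The 9 libraries held 2709475 to 4732072 reads in listed genes, with a median of 58 reads per gene and library, and 7.52 reads in the median stood behind 1 RPKM. Differences are left and right minus dorsal in log2(RPKM + 1) with their standard errors, from limma with the replicate number as a block, and are too small for genes at low RPKM. Triplets of values run over replicates 1, 2 and 3.

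In the frog gastrula the dorsal lip, or Spemann organizer, secretes antagonists of BMP, Wnt and Nodal signals, among them Chordin. Ventral cells transcribe bmp4 and BMP feedback genes such as sizzled, and ectoderm under high BMP signalling becomes epidermis with its keratins, while ectoderm under low BMP signalling becomes neural plate. An embryo cut along the midline can form a pair of complete twins. A dorsal half-embryo can restore a proportioned axis, while an isolated ventral half-embryo forms a belly piece without an axis.

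One library stood apart. Left library 2 held little RNA of several genes that define the organizer. Chordin (CHRD model Xelaev18027420m), the secreted BMP antagonist, stood at 140.1, 8.63 and 115 RPKM in left, 104, 174 and 131 in right and 157, 194 and 258 in dorsal half-embryos. The dorsally expressed BMP ligand gene admp.L stood at 55.0, 0.722 and 50.7 RPKM in left, 53.5, 53.7 and 46.9 in right and 68.2, 86.9 and 71.6 in dorsal half-embryos. The organizer homeobox gene gsc.L stood at 8.02, 0 and 8.84 RPKM in left, 11.5, 9.04 and 12.1 in right and 9.39, 14.8 and 12.3 in dorsal half-embryos, and the 0 in left library 2 was 0 reads, which allows up to 3. Each of these values of left library 2 lay far below the other 5 left and right libraries and, in RPKM, nearer to the ventral level than to theirs. By ratio, its Chordin value was still far above the ventral mean. Ventral half-embryos averaged 0.101 ± 0.130 RPKM for the Chordin model and 0.159 ± 0.0265 for admp.L (SD, n = 3). In the opposite direction, sizzled (szl.L), a BMP-induced inhibitor of the proteases that cleave Chordin, stood at 20.7, 161 and 12.6 RPKM in left, 11.3, 23.9 and 3.48 in right and 4.38, 14.4 and 1.42 in dorsal half-embryos, against 351 ± 79.1 RPKM in ventral half-embryos (SD, n = 3). The other 5 left and right libraries and the dorsal libraries had the organizer markers that their labels imply. Values without left library 2 are given beside the list counts and beside genes in which it stood far from the other 5. Libraries of bulk tissue cannot tell fewer cells of a type from less RNA per cell.

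The comparison asked how the twin-forming left and right half-embryos differed from dorsal half-embryos, which hold the organizer side, after both had been cut. With Benjamini-Hochberg adjustment at 0.05, limma called 2 genes, 0.0128% of the 15596 tested, and both were higher in left and right half-embryos. No gene was called lower. At an unadjusted p under 0.05, 649 genes (4.16%) were higher and 516 (3.31%) were lower, and limma voom on reads recovered from the RPKM values called 2 genes higher and 1 lower. All 6 left and right values lay above all 3 dorsal values in 191 genes (1.22%) and below them in 152 genes (0.975%). With 6 values against 3, some genes separate fully by chance, and these shares were not tested against that. Where no overlap is given for a gene, it describes the values and is not a further test. The median difference over all genes was 0.002.

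The called gene with the smallest p was recql.L, a DNA helicase of the RecQ family. It stood at 5.72, 6.97 and 6.45 RPKM in left, 7.52, 10.4 and 5.54 in right and 2.31, 2.81 and 1.68 in dorsal half-embryos. Every left and right library lay above every dorsal library, on 48 to 80 reads against 18 to 23 reads. The means were 7.11 ± 1.80 RPKM in left and right (SD, n = 6) and 2.27 ± 0.567 RPKM in dorsal half-embryos (SD, n = 3), a difference of 1.301 ± 0.14 (limma adjusted p = 0.0112). Ventral half-embryos, at 2.17 ± 0.386 RPKM, and whole embryos, at 2.65 ± 0.804 RPKM, lay close to the dorsal mean (SD, n = 3 each). The difference was 1.34 without left library 2 (adjusted p = 0.0265), and the call held in 15 of the 25 alternatives that give this gene a value, with differences of 1.22 to 1.63 over all 25. It was lost without right library 1 (limma adjusted p = 0.0576), dorsal library 1 (0.133) or dorsal library 2 (0.188), with no replicate block (0.0869), and in fits with the 9 libraries alone (0.131), with the 8 of them other than left library 2 (0.0751), with left and right averaged per number (0.215) or without all libraries of 1 replicate number (0.176 to 0.389).

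The other called gene was krt.L, a keratin whose deposited human match is KRT19. It stood at 178, 184 and 135 RPKM in left, 187, 39.1 and 103 in right and 18.2, 8.42 and 18.5 in dorsal half-embryos. All 6 left and right values lay above the dorsal ones, with right library 2 the lowest of the 6. The means were 138 ± 58.6 RPKM in left and right (SD, n = 6) and 15.05 ± 5.74 RPKM in dorsal half-embryos (SD, n = 3), a difference of 3.02 ± 0.38 (limma adjusted p = 0.0348). Unlike recql.L, krt.L was also high in ventral half-embryos, at 209.9 ± 69.9 RPKM, and in whole embryos, at 105 ± 39.6 RPKM (SD, n = 3 each). The difference was 2.89 without left library 2 (adjusted p = 0.0746), and 2.74 ± 0.19 in a fit of the 8 left, right and dorsal libraries other than left library 2, where it was called (limma adjusted p = 0.0256). That fit called 10 genes in all, among them MUC5B, the KRT12 model LOC549413.S, krt12.S and szl.L (adjusted p = 0.0383, 0.0383, 0.0383 and 0.0493). The main fit did not call these, but other fits that kept left library 2 did. With left and right averaged per number, limma called MUC5B and szl.L (adjusted p = 0.0357 each), beside krt.L and an OTOGL model. Without dorsal library 3, limma called krt12.S and that KRT12 model (adjusted p = 0.0402 each). The call of krt.L held in 13 of 26 alternatives. Of the 9 fits that each leave out 1 left, right or dorsal library, the call held without right library 2 (adjusted p = 0.00507) or dorsal library 3 (0.0402) and was lost in the other 7 (0.0688 to 0.579). Keratin genes are close copies, and the counting may have split reads between them.

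**Figure D1:**
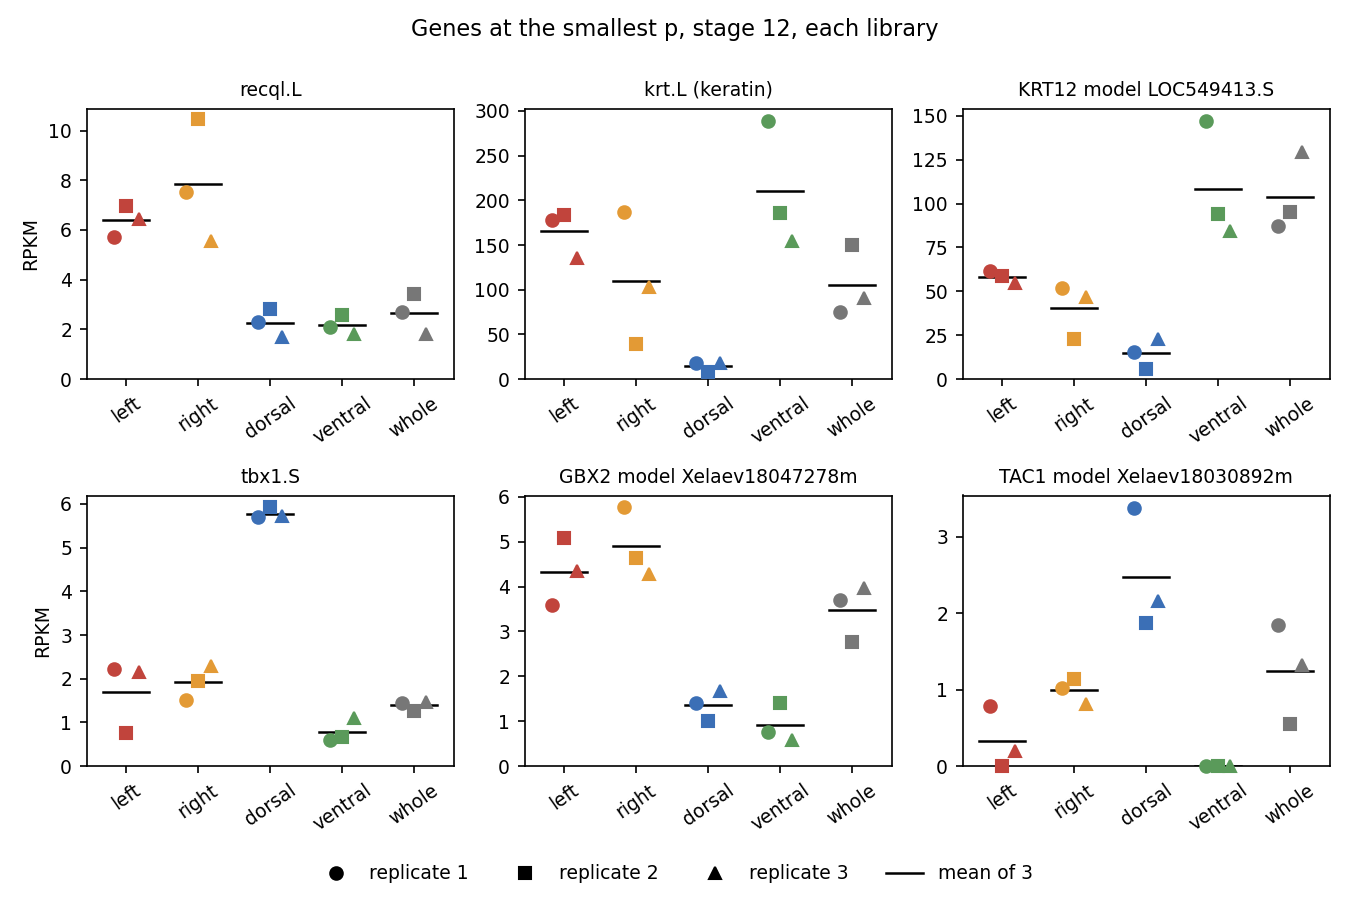
RPKM of 6 genes in each of the 15 stage 12 libraries (y axis, linear), by group (x axis), with marker shapes for replicate numbers and a line at the mean of 3 libraries. Both called genes, recql.L and krt.L, have all left and right values above the dorsal ones, but ventral and whole embryos sit with dorsal half-embryos for recql.L and with left and right half-embryos for krt.L.

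Just outside the threshold stood 10 further genes with the next smallest p, chosen here after their values were seen. The T-box gene tbx1.S, needed in the pharyngeal region, stood at 2.21, 0.747 and 2.15 RPKM in left, 1.51, 1.96 and 2.30 in right and 5.69, 5.93 and 5.71 in dorsal half-embryos. Its groups did not overlap, and the difference was -1.301 ± 0.18 (limma adjusted p = 0.067; 0.0312 with voom on recovered reads), and -1.16 without left library 2. The GBX2 model Xelaev18047278m, a homeobox gene of the posterior neural plate, stood at 3.58, 5.07 and 4.34 RPKM in left, 5.77, 4.63 and 4.29 in right and 1.40, 0.999 and 1.66 in dorsal half-embryos. Its groups did not overlap either, at 11 to 21 reads against 3 to 8 reads, and the difference was 1.25 ± 0.19 (adjusted p = 0.0788). GBX2 averaged 0.915 ± 0.437 RPKM in ventral half-embryos and 3.48 ± 0.630 RPKM in whole embryos (SD, n = 3 each). Of the other 8 genes, 6 had positive differences, from 0.93 for the epithelial splicing regulator esrp1.S to 2.68 for a model of the gel-forming mucin MUC5B. The MUC5B model (Xelaev18024377m) stood at 7.27, 12.8 and 17.9 RPKM in left, 6.76, 2.28 and 13.8 in right and 0.672, 0 and 1.06 in dorsal half-embryos, with 0 to 8 reads per dorsal library. The remaining 2 had negative differences, -1.09 for a model of the tachykinin precursor gene TAC1 (Xelaev18030892m) and -0.83 for a model of the chromatin-complex gene CCDC101 (Xelaev18001329m). TAC1 stood at 0.782, 0 and 0.193 RPKM in left, 1.03, 1.14 and 0.818 in right and 3.37, 1.87 and 2.17 in dorsal half-embryos, on at most 5 reads per left or right library and 7 to 13 per dorsal library.

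The epidermis list had the most copies higher in left and right half-embryos of the 23 gene lists examined, where each measured homeolog (.L or .S) or gene model is 1 copy. Of 46 measured copies, 1 passed the adjusted threshold (krt.L). At an unadjusted p under 0.05, 20 were higher and 0 were lower, against 4.16% and 3.31% of all genes. Differences were positive in 38 of the 46, against 50.5% of all genes, with a median of 0.44 against 0.002 over all genes. In 8 copies every left and right value lay above every dorsal value, against 1.22% of all genes. In the fit without left library 2, 18 copies were higher at that p and 0 were lower, against 3.36% and 2.8% of all genes, and the median was 0.37.

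Keratins are the main structural proteins of the epidermis. Of the list's 14 keratin copies, grouped here after their values were seen, 6 were higher and 0 were lower at an unadjusted p under 0.05, with all libraries and without left library 2. Among all genes 4.16% were higher and 3.31% lower at that p, or 3.36% and 2.8% without that library. Of the 14 copies, 6 had negative differences. Those with negative differences included the abundant simple-epithelium keratin genes krt8.L and krt18.L, at -0.03 and -0.07, which averaged 623 and 477 RPKM in left and right and 637 and 509.6 RPKM in dorsal half-embryos. The genes krt8.S and krt18.S differed by -0.14 and -0.28. The KRT12 model LOC549413.S stood at 61.4, 58.8 and 54.9 RPKM in left, 52.0, 22.9 and 46.6 in right and 15.3, 5.92 and 22.7 in dorsal half-embryos. Right library 2 and dorsal library 3 were nearest to each other, and the groups did not overlap (difference 1.79 ± 0.28, limma adjusted p = 0.0788). Its homeologous copy LOC549413.L differed by 1.62. The gene krt12.S stood at 213, 352 and 285 RPKM in left, 227, 149.6 and 283 in right and 79.3, 59.6 and 155 in dorsal half-embryos, and right library 2 overlapped dorsal library 3 (difference 1.42 ± 0.23). The homeolog krt.S, more abundant than krt.L in every library, stood at 1307, 1236 and 1065 RPKM in left, 1350.4, 616 and 899 in right and 723, 435 and 705 in dorsal half-embryos. Its groups overlapped through right library 2, and the difference was 0.78 ± 0.15 (adjusted p = 0.162). Both krt homeologs were thus higher in left and right half-embryos at an unadjusted p under 0.05. Whether the L and S copies differed in this was not tested.

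Transcription factor genes of the epidermis named here had positive differences too. The TFAP2A model Xelaev18033390m, an AP-2 activator of keratin genes, stood at 32.9, 47.9 and 24.9 RPKM in left, 31.6, 27.6 and 25.2 in right and 22.4, 15.2 and 18.6 in dorsal half-embryos, with no overlap (difference 0.71 ± 0.16, adjusted p = 0.287, 0.57 without left library 2). The homeobox gene dlx3.S, a BMP target of non-neural ectoderm, stood at 26.8, 45.8 and 19.6 RPKM in left, 19.3, 12.6 and 12.7 in right and 13.1, 2.76 and 11.9 in dorsal half-embryos, and right libraries 2 and 3 overlapped dorsal library 1 (difference 1.29 ± 0.35, adjusted p = 0.347, 1.01 without left library 2). Dorsal library 2 was the lowest of all 9 for dlx3.S. The grainyhead-like model GRHL1 (Xelaev18028037m), of a family that controls epidermal barrier genes, stood at 31.9, 51.1 and 31.4 RPKM in left, 29.0, 25.3 and 26.6 in right and 20.7, 5.80 and 24.6 in dorsal half-embryos, with no overlap (difference 1.07 ± 0.32, adjusted p = 0.39, 0.83 without left library 2). The Kruppel-like gene klf5.L differed by 0.98 ± 0.24 (adjusted p = 0.297), and the cadherin gene cdh1.S by 0.51. The secreted mucin-like OTOGL model (Xelaev18036111m) varied most, at 32.5, 13.7 and 10.1 RPKM in left, 27.3, 1.00 and 6.86 in right and 3.40, 0.281 and 0.876 in dorsal half-embryos (difference 2.40 ± 0.47, 2.24 without left library 2). Its right library 2 lay within the dorsal range. Ventral half-embryos averaged more of these genes than left and right ones, at 108 ± 33.8 RPKM for the KRT12 model LOC549413.S, 65.8 ± 23.9 for dlx3.S and 42.9 ± 2.88 for the TFAP2A model (SD, n = 3 each).

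Organizer and axial mesoderm genes mostly had negative differences. Of 47 measured copies, 0 passed the adjusted threshold. At an unadjusted p under 0.05, 0 were higher and 11 were lower in left and right half-embryos, against 4.16% and 3.31% of all genes. Negative differences were found in 41, against 49.5% of all genes. The median was -0.76, and in 7 copies every left and right value lay below every dorsal value, against 0.975% of all genes. The median was -0.37 without left library 2. The number of copies lower at that p was then 16, against 2.8% of all genes in the same fit. With all libraries 6 copies had positive differences, among them the most abundant of the list, the HAS1 models Xelaev18019732m (0.44) and Xelaev18019733m (0.48). The first averaged 1731 RPKM in left and right and 1221 RPKM in dorsal half-embryos, and the second 490 and 340 RPKM.

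Of the secreted BMP antagonists, Chordin was measured in 3 models. The model Xelaev18027420m averaged 112 ± 56.2 RPKM in left and right (SD, n = 6) and 203 ± 51.1 RPKM in dorsal half-embryos (SD, n = 3). The difference was -1.23 ± 0.60 with a 95% interval of -2.52 to 0.07, and -0.59 without left library 2 (limma adjusted p = 0.593). Its values in the other 5 left and right libraries, 104 to 174 RPKM, overlapped the dorsal ones. The other 2 models, Xelaev18027421m and Xelaev18029538m, differed by -1.34 and -1.22, and by -0.61 and -0.52 without left library 2. For the dorsal BMP ligand genes admp.L and admp.S all left and right values lay below the dorsal ones. The differences were -1.35 ± 0.78 and -1.26 ± 0.76 (adjusted p = 0.768 and 0.79), and -0.50 and -0.44 without left library 2.

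Among the transcription factors of the organizer and notochord, the forkhead gene foxa4.L stood at 167, 103 and 150.4 RPKM in left, 227, 195 and 209.8 in right and 247, 263 and 252 in dorsal half-embryos, with no overlap (difference -0.58 ± 0.18, -0.45 without left library 2). Its homeolog foxa4.S stood at 104, 38.5 and 114 RPKM in left, 125, 124 and 140.3 in right and 153, 168 and 183 in dorsal half-embryos, again with no overlap (difference -0.74 ± 0.25, -0.49 without left library 2). Ventral half-embryos averaged 86.7 ± 17.9 RPKM of foxa4.L and 32.0 ± 4.84 of foxa4.S (SD, n = 3). The LIM homeobox gene lhx1.S stood at 19.8, 5.399 and 19.5 RPKM in left, 15.1, 32.6 and 25.0 in right and 24.7, 39.7 and 44.4 in dorsal half-embryos, where right libraries 2 and 3 overlapped dorsal library 1 (difference -0.98 ± 0.35, -0.64 without left library 2). The notochord homeobox gene not.L differed by -0.53 ± 0.20, and -0.38 without left library 2. For goosecoid the differences were -0.84 ± 0.55 for gsc.L and -1.05 ± 0.51 for gsc.S, and they were -0.30 and -0.60 without left library 2. The anterior endoderm gene hhex.S stood at 11.2, 0.269 and 3.58 RPKM in left, 1.90, 9.66 and 2.51 in right and 8.32, 13.0 and 11.4 in dorsal half-embryos, with left library 1 and right library 2 within the dorsal range (difference -1.40 ± 0.59, -0.85 without left library 2).

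Of the secreted signals, the notochord ligand gene shh.S stood at 1.40, 0 and 2.00 RPKM in left, 0.532, 1.77 and 1.56 in right and 2.33, 4.20 and 3.59 in dorsal half-embryos, with no overlap (difference -1.06 ± 0.30, -0.80 without left library 2). It was at 0 in all 3 ventral libraries. The Wnt antagonist gene frzb.S stood at 68.6, 64.2 and 75.4 RPKM in left, 79.7, 126 and 102 in right and 101, 97.1 and 132 in dorsal half-embryos, with overlap (difference -0.38 ± 0.12). The Wnt, BMP and Nodal antagonist gene cer1.L differed by -0.77 ± 0.39 (adjusted p = 0.713), and the Nodal antagonist gene lefty.L by -0.73 ± 0.28 (adjusted p = 0.57). None of the organizer copies reached the adjusted threshold with all libraries or without left library 2.

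**Figure D2:**
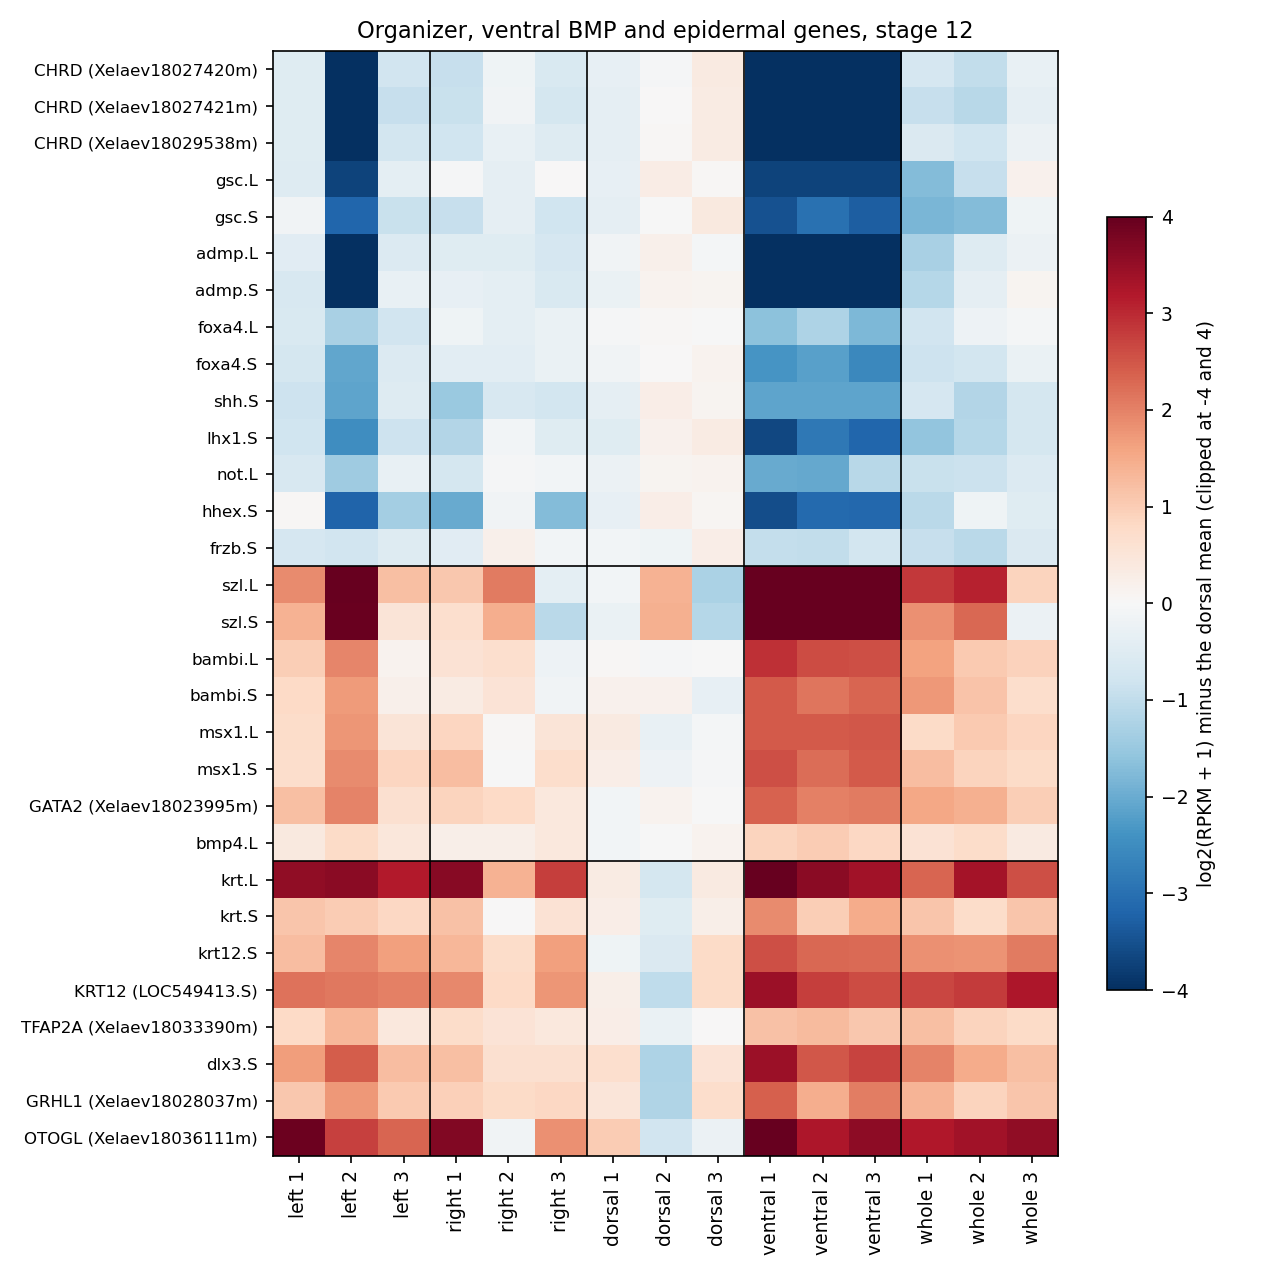
Log2(RPKM + 1) minus the mean of the 3 dorsal libraries (colour, clipped at 4 in either direction) for 30 genes (rows: organizer above, ventral BMP in the middle, epidermal below) in the 15 stage 12 libraries (columns). Left library 2 and the ventral columns are both far below the dorsal mean for admp.L and the Chordin model Xelaev18027420m, where clipping hides how far they differ. For frzb.S left library 2 lies close to the other left libraries. The gene krt.L is above the dorsal mean in all 6 left and right libraries.

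In the ventral BMP list 0 of 49 copies passed the adjusted threshold. At an unadjusted p under 0.05, 15 were higher and 2 were lower, against 4.16% and 3.31% of all genes, and 36 had positive differences, against 50.5% of all genes, with a median of 0.27. The counts were 12 and 2 without left library 2, against 3.36% and 2.8% of all genes, 33 copies had positive differences, and the median was 0.13. The ligand gene bmp4.L stood at 15.1, 19.95 and 15.8 RPKM in left, 13.6, 13.6 and 15.5 in right and 10.4, 11.1 and 12.6 in dorsal half-embryos, with no overlap (difference 0.42 ± 0.12, 0.37 without left library 2). The GATA2 model Xelaev18023995m, a transcription factor of ventral mesoderm and ectoderm, stood at 54.7, 94.5 and 36.4 RPKM in left, 43.4, 40.7 and 30.8 in right and 21.1, 25.4 and 22.5 in dorsal half-embryos, with no overlap (difference 0.99 ± 0.19, limma adjusted p = 0.162, 0.83 without left library 2). The BMP-induced homeobox gene msx1.S stood at 41.8, 96.9 and 46.7 RPKM in left, 61.1, 25.3 and 41.6 in right and 30.9, 21.7 and 24.3 in dorsal half-embryos, where right library 2 overlapped the dorsal values (difference 0.89 ± 0.27, 0.64 without left library 2). The BMP pseudoreceptor gene bambi.L stood at 69.3, 139 and 38.5 RPKM in left, 52.0, 55.7 and 30.3 in right and 35.8, 34.0 and 34.6 in dorsal half-embryos, with left library 2 far above the rest and right library 3 below the dorsal libraries (difference 0.69 ± 0.25, 0.45 without left library 2). For sizzled the differences were 1.78 ± 0.49 for szl.L and 1.16 ± 0.53 for szl.S, and 1.43 and 0.85 without left library 2. The 2 lower copies were an ID3 model (Xelaev18015089m) at -0.36 and a SMAD6 model at -0.64, where ID3 is a BMP-induced inhibitor of helix-loop-helix factors and SMAD6 an inhibitory Smad.

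With all libraries neural genes had no common direction. Of 66 copies of the neural plate list, 9 were higher and 4 lower at an unadjusted p under 0.05, against 4.16% and 3.31% of all genes. Of the 66, 32 had positive differences, and the median was -0.01. Without left library 2, 6 were higher and 3 were lower, against 3.36% and 2.8% of all genes. In that fit 43 had positive differences, against 49.9% of all genes, and the median was 0.11. Those higher included 3 GBX2 models and 3 HES5 models, targets of Notch signalling, and those lower included the genes nkx6-2.L (-1.32) and nkx6-2.S (-0.98) and an NKX6-1 model (-1.04), homeobox genes of the ventral neural tube. The HES5 model Xelaev18035790m stood at 4.27, 11.3 and 4.10 RPKM in left, 6.93, 5.51 and 7.099 in right and 2.44, 2.32 and 3.37 in dorsal half-embryos, with no overlap (difference 0.97 ± 0.28, 0.72 without left library 2). In the neural crest and plate border list, 10 of 29 copies were higher and 0 were lower at an unadjusted p under 0.05. Without left library 2 the counts were 6 and 0, and the shares of all genes are those given above. Differences were negative in 11 of the 29, against 49.5% of all genes. The list shares GBX2, dlx3, msx1 and TFAP2C with other lists. Its higher copies include the GBX2 models, msx1.L and msx1.S, which are also counted there.

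The hox genes mostly had small positive differences at low levels. Of 21 hox copies, which pattern the trunk and tail, 20 had positive differences (17 without left library 2) with a median of 0.36, against 50.5% positive among all genes. At an unadjusted p under 0.05, 4 were higher and 0 were lower, against 4.16% and 3.31% of all genes. Without left library 2 the counts were 2 and 0, against 3.36% and 2.8% of all genes, and the median was 0.27. The gene hoxc8.S stood at 0.792, 3.09 and 1.96 RPKM in left, 1.82, 1.88 and 1.16 in right and 0.569, 0.540 and 0.675 in dorsal half-embryos, with no overlap, on 6 to 24 reads per left or right library and 4 to 8 per dorsal library (difference 0.76 ± 0.29, 0.71 without left library 2). Of the marginal zone and tail mesoderm list, 6 of 76 copies were higher, 4 were lower and 31 had negative differences, and without left library 2 the counts higher and lower were 2 and 4. In 3 copies every left and right value lay below every dorsal value, against 0.975% of all genes. In 0 copies every value lay above, against 1.22% of all genes. The lower copies included tbx1.S, described above, which had the lowest difference of the list (-1.301). The tail bud gene t.L (brachyury) stood at 133, 127 and 97.2 RPKM in left, 139, 102 and 112 in right and 134, 62.6 and 74.9 in dorsal half-embryos, with overlap (difference 0.45 ± 0.16). The lateral plate forkhead gene foxf1.S stood at 3.25, 8.49 and 1.14 RPKM in left, 2.02, 1.496 and 0.321 in right and 0.368, 0.874 and 0.218 in dorsal half-embryos, with left library 2 the highest (difference 1.08 ± 0.30, 0.85 without it). Its right library 3 lay within the dorsal range.

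For specialised epidermal cells the lists were short. Of 22 copies of the multiciliated cell list, 3 were higher and 1 was lower at an unadjusted p under 0.05, and of 16 copies for ionocytes and secretory cells, 3 were higher and 0 were lower. Among all genes 4.16% were higher and 3.31% lower at that p. The counts were 3 and 0, and 2 and 0, without left library 2, against 3.36% and 2.8% of all genes. Differences were negative in 9 of the 22 and in 7 of the 16 copies, against 49.5% of all genes. Negative ones included ift88.S of the first list, at -0.49 to -0.27 over 25 alternatives. In the second list they included atp6v1e1.S, at -0.46 to -0.12 over 26 alternatives. The MCIDAS model Xelaev18010956m, a master regulator of multiciliated cells, stood at 2.1, 6.82 and 2.85 RPKM in left, 1.38, 2.30 and 1.54 in right and 0, 0 and 0.671 in dorsal half-embryos, with no overlap but only 4 to 20 reads against 0 to 3 (difference 1.56 ± 0.33, 1.36 without left library 2). The forkhead gene foxn4.S, which acts in the same cells, stood at 1.38, 2.77 and 0.842 RPKM in left, 1.36, 1.60 and 1.02 in right and 0.262, 0.664 and 0.518 in dorsal half-embryos, with no overlap (difference 0.72 ± 0.21, 0.59 without left library 2). The ionocyte gene foxi1.S stood at 3.61, 15.1 and 5.08 RPKM in left, 2.49, 0.791 and 3.40 in right and 0, 0 and 2.31 in dorsal half-embryos, and right library 2 lay within the dorsal range (difference 1.69 ± 0.51, 1.24 without left library 2). The medians without left library 2 were -0.01 for multiciliated cells and 0.04 for ionocytes and secretory cells.

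Genes of FGF signalling, which helps to form mesoderm, mostly had negative differences. Of 38 copies, 30 had negative differences, against 49.5% of all genes. At an unadjusted p under 0.05, 0 were higher and 8 were lower, against 4.16% and 3.31% of all genes, with a median of -0.16. Without left library 2, 0 were higher and 6 were lower, against 3.36% and 2.8% of all genes. In that fit 26 had negative differences and the median was -0.16. The ligand gene fgf8.L stood at 13.0, 9.38 and 15.8 RPKM in left, 13.3, 16.3 and 17.5 in right and 18.8, 18.5 and 20.5 in dorsal half-embryos, with no overlap (difference -0.44 ± 0.13, -0.34 without left library 2). The MAP kinase phosphatase gene dusp5.S, an FGF target, stood at 15.9, 15.8 and 24.7 RPKM in left, 13.1, 24.4 and 34.5 in right and 33.1, 35.9 and 32.9 in dorsal half-embryos, where right library 3 overlapped the dorsal values (difference -0.71 ± 0.19). In the left-right asymmetry list, 4 of 19 copies were lower and 0 were higher with all libraries, and likewise without left library 2, beside the same shares of all genes. The lower copies included a model of the Nodal co-receptor gene CFC1 (Xelaev18006975m), which stood at 1.40, 1.37 and 0.260 RPKM in left, 1.38, 1.15 and 0.660 in right and 2.65, 3.23 and 3.14 in dorsal half-embryos, on 1 to 4 reads against 7 to 14 (difference -1.01 ± 0.29). Of 33 endoderm copies, 1 was higher and 3 were lower, with and without left library 2, and 8 had positive differences, against 50.5% of all genes. The endoderm list shares the foxa1, foxa2 and cer1 copies with the organizer list, and all of these had negative differences. The protease inhibitor gene a2m.S stood at 389, 353 and 322 RPKM in left, 382, 599 and 385 in right and 470.3, 683 and 497 in dorsal half-embryos (difference -0.45 ± 0.11). Its right library 2 lay within the dorsal range.

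Both groups had been cut, and the wound and immediate early list had 1 copy of 68 higher and 10 lower in left and right half-embryos at an unadjusted p under 0.05, with a median of -0.07. For this list and those below, 4.16% of all genes were higher and 3.31% lower at that p. Without left library 2 these shares were 3.36% and 2.8%. The PI3 kinase inhibitor gene pik3ip1.L stood at 1.65, 1.15 and 4.72 RPKM in left, 2.56, 4.91 and 3.85 in right and 6.36, 10.4 and 7.84 in dorsal half-embryos, with no overlap (difference -1.23 ± 0.28, limma adjusted p = 0.289). The phosphatase gene dusp1.S differed by -0.56 ± 0.16 and the nuclear receptor gene nr4a1.L by -0.72 ± 0.23. Without left library 2, 0 copies were higher and 6 were lower. For hypoxia and glycolysis 0 of 67 copies were higher and 3 were lower, and 0 were lower without left library 2. For the cell cycle 1 of 80 was higher and 1 was lower, with and without that library, for ribosomal proteins 2 of 148 were higher (1 without that library) and 0 were lower, and for mitochondrially encoded genes 0 of 4 differed at that p. Germ plasm genes had 0 of 26 copies higher and 4 lower (3 without left library 2), including dazl.L, which encodes a germ cell RNA-binding protein, at 2.56, 1.45 and 3.80 RPKM in left, 2.52, 5.61 and 7.19 in right and 5.81, 5.52 and 15.8 in dorsal half-embryos, with overlap (difference -1.02 ± 0.30). The remaining lists had at most 5 copies on either side, to be read beside the shares of all genes given above. The counts of higher and lower copies were 5 and 4 of 76 for the Wnt pathway, 5 and 3 of 45 for Notch, 3 and 2 of 27 for pluripotency, 2 and 2 of 16 for ventral blood and vessel mesoderm and 0 and 1 of 26 for retinoic acid. The fit without left library 2 gave 3 and 2 for Notch and 2 and 0 for pluripotency, and the same counts for the other 3 lists. With all libraries, the 2 higher copies of the ventral blood and vessel list were the GATA2 models also counted in the ventral BMP list. Its lower copies included hhex.S of the organizer list.

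**Figure D3:**
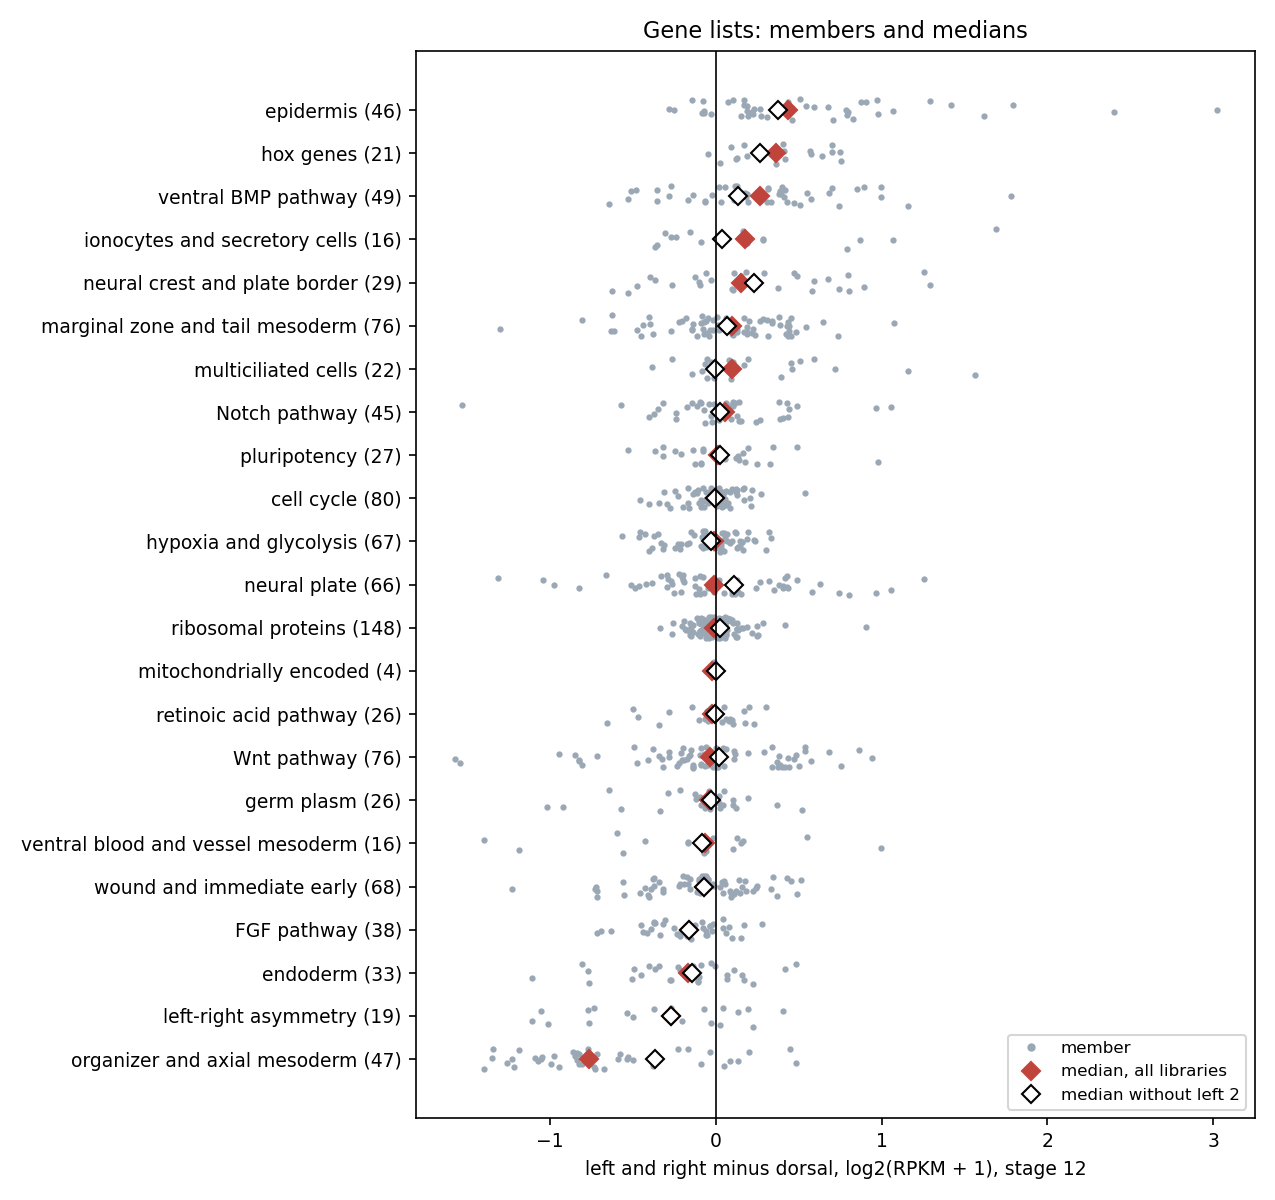
Left and right minus dorsal in log2(RPKM + 1) (x axis) for every measured copy of 23 gene lists (y axis, number of copies in brackets), with list medians from all libraries (filled) and without left library 2 (open). The epidermis median lies at 0.44 and the organizer median at -0.76, and leaving out left library 2 brings the organizer median to -0.37.

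Left and right half-embryos were also set against dorsal half-embryos separately, with the same dorsal libraries in both comparisons. Right half-embryos had 1 called gene, recql.L, higher than in dorsal half-embryos (0.00641% of genes, and 710 genes, 4.55%, at an unadjusted p under 0.05), and voom on recovered reads called 1. Left half-embryos had 0 called genes with limma against dorsal half-embryos (1326 genes, 8.5%, at an unadjusted p under 0.05), and voom called 17. Without left library 2, the left comparison had 922 genes at that p and 0 called genes with limma. For recql.L the differences were 1.19 for left and 1.41 for right, and for krt.L they were 3.44 for left and 2.60 for right. Between left and right half-embryos limma called 0 genes (612 genes, 3.92%, at an unadjusted p under 0.05), and voom called 0. The differences left minus right of recql.L and krt.L were -0.22 ± 0.16 and 0.84 ± 0.44, neither past the threshold.

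Within same-numbered libraries the list medians showed how the pairs differed. The organizer median was -0.07 for left 1 minus dorsal 1 and -0.18 for right 1 minus dorsal 1, -2.47 for left 2 and -0.28 for right 2 minus dorsal 2, and -0.61 for left 3 and -0.60 for right 3 minus dorsal 3. It was negative in all 6 pairs, with left library 2 far below the rest. The epidermis median was positive in all 6 pairs, at 0.45 for left and 0.49 for right with number 1, 0.98 for left and 0.36 for right with number 2, and 0.19 for left and 0.09 for right with number 3. The ventral BMP median ran from -0.04 for right 3 to 0.72 for left 2.

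**Figure D4:**
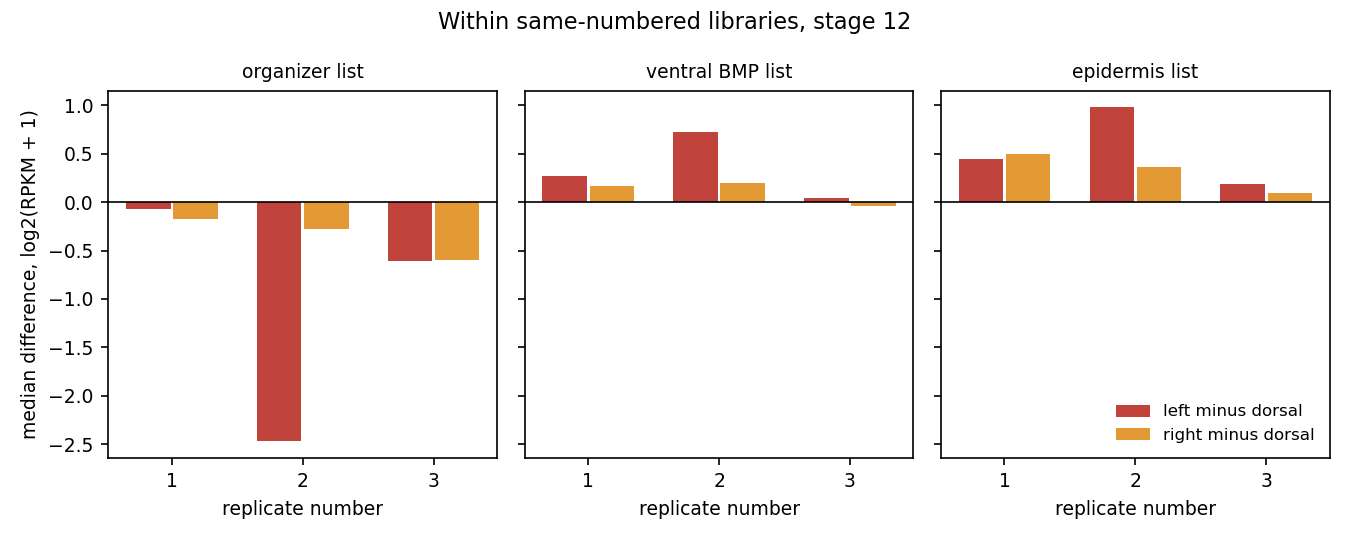
Median difference in log2(RPKM + 1) (y axis) of left minus dorsal and right minus dorsal libraries with the same replicate number (x axis), for the organizer, ventral BMP and epidermis lists at stage 12. The organizer bar of left library 2 reaches -2.47, while the other 5 lie between -0.61 and -0.07, and all 6 epidermis bars are above 0.

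The same groups at stage 10.5, the early gastrula, are separate libraries and were used to see which differences stood there too. With limma 0 of 16673 genes were called at stage 10.5 (1701 genes, 10.2%, at an unadjusted p under 0.05), and voom called 48 higher and 30 lower. Of the 649 genes higher at stage 12 at an unadjusted p under 0.05, 581 were in the stage 10.5 table. Of these, 426 (73.3%) were also higher there, against 56.6% of all 14948 shared genes, and 125 (21.5%) were higher at an unadjusted p under 0.05, against 6.44% of all. Of the 516 lower genes, 468 were in that table, 301 (64.3%) were also lower there, against 43.4% of all, and 82 (17.5%) were lower at an unadjusted p under 0.05, against 4.14% of all. The median of the epidermis list at stage 10.5 was 0.59 over 38 copies, with 20 higher and 1 lower at that p, against 6.36% and 3.84% of all genes at stage 10.5. The organizer median was -0.60 over 45 copies, with 3 higher and 20 lower. The ventral BMP median was 0.36 over 45 copies, with 22 higher and 2 lower. Chosen in the stage 12 fit without left library 2, 524 genes were higher and 436 lower, of which 468 and 405 were in the stage 10.5 table. Of these, 71.2% were also higher and 60.2% also lower at stage 10.5, and 19.7% and 14.6% were so at an unadjusted p under 0.05.

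Of the 2 called genes, recql.L had a difference within its error at stage 10.5. It stood at 5.18, 4.59 and 4.56 RPKM in left, 4.04, 3.99 and 2.39 in right and 4.22, 5.13 and 2.28 in dorsal half-embryos at that stage (difference 0.10 ± 0.19, limma adjusted p = 0.901). The stage 12 minus stage 10.5 change of the difference was 1.21 ± 0.23 (adjusted p = 0.21). The keratin gene krt.L stood at 25.7, 7.51 and 2.65 RPKM in left, 17.9, 10.3 and 1.84 in right and 0.444, 1.63 and 4.29 in dorsal half-embryos at stage 10.5 (difference 1.71 ± 0.92, adjusted p = 0.573). Its levels varied between replicate numbers, and with number 3 the dorsal library was above both left and right. Among other genes, krt12.S differed by 2.44 ± 0.45 at stage 10.5 (limma adjusted p = 0.0783), dlx3.S by 2.24 ± 0.33 (adjusted p = 0.0612) and msx1.S by 1.42 ± 0.21 (adjusted p = 0.0612). The Chordin model Xelaev18027420m differed by -0.94 ± 0.36 (limma adjusted p = 0.403) and tbx1.S by -0.93 ± 0.33 (adjusted p = 0.373), with the same signs as at stage 12.

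A test of the change itself between the stages called 0 of 14948 genes with limma (822 genes, 5.5%, at an unadjusted p under 0.05), and voom called 0. The genes with the smallest adjusted p in it were recql.L, a CCDC101 model (Xelaev18001329m), tuba4b.L (an alpha tubulin), an MBOAT1 model (Xelaev18031711m, a lysophospholipid acyltransferase), utp23.S (ribosomal RNA processing) and mrps17.L (mitochondrial ribosome). The alpha tubulin gene tuba4b.L differed by -0.50 ± 0.20 at stage 12 and 0.63 ± 0.09 at stage 10.5, a change of -1.13 ± 0.22 (adjusted p = 0.21). The MBOAT1 model stood at 6.55, 7.85 and 6.47 RPKM in left, 9.01, 5.23 and 7.02 in right and 2.79, 1.82 and 3.58 in dorsal half-embryos at stage 12, with no overlap (difference 1.12 ± 0.21), and differed by -0.04 ± 0.12 at stage 10.5. The gene pik3ip1.L, lower at stage 12 at an unadjusted p under 0.05, differed by -0.05 ± 0.35 at stage 10.5.

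**Figure D5:**
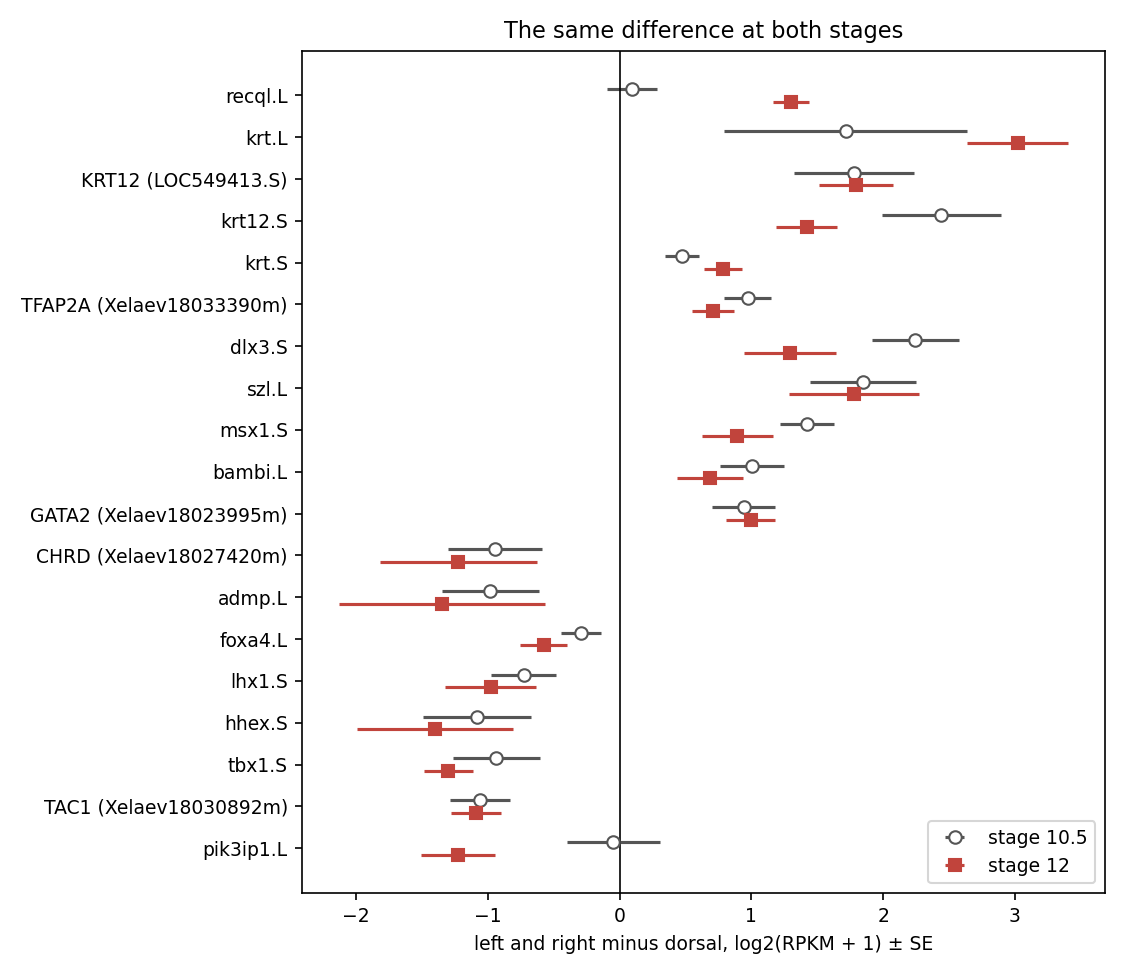
Left and right minus dorsal in log2(RPKM + 1) with its standard error (x axis) for 19 genes (y axis) at stage 10.5 (open circles) and stage 12 (filled squares). The plotted epidermal and ventral BMP genes lie above 0 and the plotted organizer genes below 0 at both stages, while recql.L lies at 0.10 at stage 10.5 and at 1.301 at stage 12. Other list members lie on the other side. At stage 12, 8 of 46 epidermis and 13 of 49 ventral BMP copies were negative, and 6 of 47 organizer copies were positive.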

How the data were processed

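For each stage the authors deposited a table of gene RPKM, restricted to genes with an average RPKM above 1, per the file headers, although 20 listed genes averaged below 1 at stage 12. Genes are models of the JGI laevis annotation, with human symbols from a protein search, per the file headers. TopHat2 2.09 and DESeq are the tools named, per the submitters' processing notes, and no counting tool is named in the sources used here. Libraries were made with a TruSeq kit that keeps no strand, per the labels' protocols, so overlapping antisense genes cannot be told apart, and homeologs (.L and .S) and keratin copies may share reads.

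Groups and replicate numbers were read from the sample titles. Of 15596 genes at stage 12, 9202 had a symbol as ID, 5218 were models with a human symbol and 1176 had none. Values were tested as log2(RPKM + 1) with limma (3.58.1, in R 4.3.3), using limma-trend, over all listed genes and all 15 libraries of the stage, with group means and the replicate number as a block, two-sided, with Benjamini-Hochberg adjustment over all genes. The contrast was the mean of left and right minus dorsal. The block followed the labels, in which each whole-embryo control names the same-numbered half-embryos it serves. Deviations from group means correlated at 0.275 or more (median 0.411) over 30 same-numbered pairs and at -0.0837 or less over 60 other pairs. Centring each group on its mean makes other pairs negative on average where same-numbered ones are positive, so the ranges are not separate support. Dividing RPKM by the worth of 1 read gave whole reads for 100% of genes, with a relative error of at most 9.9e-10. These reads give the depths, and an alternative with limma voom was added after seeing the data. Replicates differed by more than counting error (chi-square of 7.44 to 11.3 per degree of freedom). The fit was also run on simulated data with independent noise in every library and no outlying library. That run therefore cannot speak to calls that depend on single libraries, and its outcome is not used here.

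The members of the comparison and the 23 gene lists were chosen with earlier results of these data known. Named genes were the called genes without overlap, up to 6 members of each list with the smallest p, the Chordin, gsc, admp, szl, bambi, mcidas and foxi1 copies, the 6 with the smallest adjusted p in the stage test and in left versus right, and, chosen after their values were seen, the 12 with the smallest p, in all 149. A few further list members are named with their differences alone. Sequences and coordinates are not used here.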

Additional observations from a re-analysis of the deposited data

Results flagged for a closer look

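Among the 6 left and right libraries of stage 12, 41 values were examined for a single library far from the others, by the gap to the nearest library as a share of the whole range on the log2 scale. They were 23 summed RPKM levels of lists and 18 genes, among them the Chordin, gsc, admp, szl, bambi, mcidas and foxi1 copies. Chance flags about 1 group in 20 of independent values. The 41 values include copies of the same gene, and the lists were chosen with earlier results known. Their count of flags therefore cannot be set against that rate. In 12 of the 41 the gap passed Dixon's critical value for 6 samples, and in all 12 the library was left 2. It was the lowest for the 3 Chordin models Xelaev18027420m (0.824), Xelaev18027421m (0.838) and Xelaev18029538m (0.88), for admp.L (0.955) and admp.S (0.93), and for gsc.L (0.856) and gsc.S (0.74). It was the highest for the MCIDAS model Xelaev18008287m (0.661). No szl, bambi or foxi1 copy was flagged.

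Of the summed list levels, left library 2 was the highest for the ventral BMP pathway (0.688 of the range), at 2450.1 RPKM against 1183 to 1485 in the other 5 left and right libraries and 1160.5 to 1329 in dorsal half-embryos, and for ionocytes and secretory cells (0.761), at 247 RPKM against 173 to 188. It was the lowest for the neural plate (0.646), at 1127 RPKM against 1568 to 1879, and for the cell cycle (0.74), at 3920.3 RPKM against 4317 to 4466. For the organizer list its sum was not flagged, at 4427 RPKM against 3397 to 5017 in the other 5 left and right libraries. Its 3048315 reads in listed genes lay within the range of the 9 libraries.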

How the results depend on the processing

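The count of 2 called genes at stage 12 became 1 at a mean RPKM of 5 or more, where recql.L was filtered out and not tested. It became 1 with median centring or without the trend, 0 with no replicate block, 0 with the 9 libraries alone, and 4 with left and right averaged per number. Leaving out 1 library at a time gave 0 to 8 called genes, the 8 without dorsal library 3, with 0 without right library 1, dorsal library 1 or dorsal library 2 and 1 without left library 2. Without left library 2 among the remaining 8 left, right and dorsal libraries alone it was 10 (9 higher, 1 lower), and without all libraries of replicate number 1, 2 or 3 it was 1 each time. That gene was a different one each time: comt.L without number 1, krt.L without number 2 and an ALPL model (LOC101730334.S) without number 3. Other pseudocounts, upper-quartile and quantile scaling, a robust fit and a filter at an RPKM of 1 in at least 3 libraries gave 2, and voom gave 3. The count for left against dorsal was 0, but 3 with a pseudocount of 0.5, 17 with voom and 0 to 9 without 1 library (9 without dorsal library 3). For right against dorsal it was 1 (recql.L), but 0 at a mean RPKM of 5 or more, where recql.L was not tested, 0 with no replicate block and 0 without any 1 library. At stage 10.5 it was 0, but 19 at a mean RPKM of 5 or more, 78 with voom, 2 with 9 libraries alone, 28 with left and right averaged and 0 to 13 without 1 library (13 without dorsal library 2). The count for the change between stages was 0 to 1 without 1 library. Left against right stayed at 0 in every alternative run. Without the replicate block recql.L had an adjusted p of 0.0869 and krt.L one of 0.0573. The causes of the other changes were not tested.

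Of the values of named genes under the alternatives, 3764 kept their direction and side of the threshold, 23 lost a call, 12 gained one and 30 changed sign. The sign changes were in 6 genes with differences near 0. With a pseudocount of 0.1 SPTSSB stood at -0.0086 and BNIPL at -0.020, and without replicate 3 of every group at -0.25 and -0.032. With quantile normalization ND1 stood at 0.15, ATP6 at 0.0021 and ND5 at 0.059. With voom ND6 stood at 0.017 and ND5 at 0.0026. Without replicate 1 of every group ND6 stood at 0.18, ND1 at 0.20, ATP6 at 0.23 and ND5 at 0.20. ND6 stood at 0.065 in the 8 libraries without left library 2. Leaving out 1 library at a time gave -0.075 to 0.43 for SPTSSB, -0.068 to 0.19 for BNIPL, -0.27 to 0.21 for ND6, -0.23 to 0.24 for ND1, -0.37 to 0.32 for ATP6 and -0.18 to 0.25 for ND5. The planned edgeR fit was not run, since the deposited values are RPKM. There were 3 dorsal libraries, and the median standard error was 0.17. Differences of low genes rest on few reads, and whether they were harder to detect was not tested.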

Other observations

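Between left and right half-embryos, the 6 genes with the smallest adjusted p, none of them called by limma, had differences of 0.84 for crb3.L and 0.82 for fam212a.S, both higher in left, and -0.60 for oscp1.L, -1.19 for a BNIPL model (Xelaev18040666m), -1.19 for DCXR (MGC79752.L) and -1.94 for an SPTSSB model (Xelaev18029735m). The SPTSSB model, a subunit of the enzyme that starts sphingolipid synthesis, stood at 0, 0 and 0 RPKM in left, 2.19, 2.43 and 4.18 in right and 1.196, 1.14 and 0 in dorsal half-embryos. Its highest value rested on 6 reads, and the 0 values on 0 reads, each of which allows up to 3.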
